A study of Rattus norvegicus with 16 samples.

Results

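The cortex of aged rats fed curcumin for 12 weeks was compared with the cortex of rats fed standard chow for the same time. The comparison was defined by the labels alone (tissue cortex, time point 12 weeks) and holds 4 of the 16 arrays of the study, 2 from curcumin-treated rats and 2 from control rats. All animals were male Sprague-Dawley rats aged 15 months at the start of the study, so that the 12-week rats were older at tissue collection than the 6-week rats, and the curcumin chow held 480 mg of curcumin per kg of feed. Control rats received the chow without curcumin and no gene was altered in any group. The study asked which transcripts respond to long-term dietary curcumin, the yellow polyphenol of turmeric, in the aged brain. It also held cortex after 6 weeks and hippocampus after 6 and 12 weeks, again with 2 arrays per group. Each array was hybridised with RNA pooled from 3 rats, so that single animals cannot be seen. By its labels each group holds biological replicates, but the design text speaks of hybridisation in duplicate for the RNA samples. All p-values therefore measure the spread between arrays, which may be technical. Whole cortex was used, and in such tissue fewer cells of a type and less RNA per cell cannot be told apart.

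The cerebral cortex holds excitatory projection neurons and GABA interneurons with their synapses, together with astrocytes, oligodendrocytes, microglia and the cells of vessels and meninges. Class II molecules of the major histocompatibility complex (MHC) present peptides from the endosome to CD4+ T cells. In the brain they are made mainly by activated microglia and by macrophages of the borders. Serotonin acts on cortical neurons through a family of receptors, of which the 5-HT2A receptor, encoded by Htr2a, is the best known on pyramidal cells, and the monoamine oxidases break serotonin down.

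Levels are log2 values of whole transcript clusters (sets of probes for a transcript), and a difference of 1 on this scale is a 2-fold change. Of 27342 clusters, limma called 885 (3.24%) at an adjusted p under 0.05, 449 higher (1.64%) and 436 lower (1.59%) with curcumin. Where clusters with exactly 1 gene symbol were reduced to the brightest cluster per gene, 577 of 14324 genes were called (4.03%). Of these, 256 rose (1.79%) and 321 fell (2.24%). All 577 had curcumin arrays beyond the control arrays, as did 46.6% of all genes (44.3% of all clusters). Most changes were small. The median change was 0.429 among the genes that rose and -0.432 among those that fell, and only 5 called genes changed 2-fold or more. The median over all genes was -0.0054, with 48.2% of them above 0. The rule used in the study, a fold of 1.5 and more or of 0.66 and less without a test, was met by 226 clusters (0.827%) or 122 genes (0.852%), 54 of them higher (0.377%) and 68 lower (0.475%), and 74 genes passed both that rule and limma.

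The calls rested on few arrays. Without control replicate 1, 26 clusters were called, without control replicate 2 266, without curcumin replicate 1 447 and without curcumin replicate 2 264. A fit to the 8 cortical arrays called 22 clusters and a fit to the 4 arrays of the comparison alone called 2, both with fewer residual degrees of freedom than the fit to 16 arrays. Of the 577 genes, 13 stayed called without control replicate 1, 149 without control replicate 2, 210 without curcumin replicate 1 and 151 without curcumin replicate 2, and 13 stayed called whichever of the 4 was left out. Every called gene named below other than those 13, which are listed further on, lost its call without at least 1 of these arrays. The pair of curcumin arrays correlated at 0.9925 and the control pair at 0.995, with 330 and 196 clusters that differed 1.5-fold or more within the pair. The fit to 16 arrays shares its estimate of the spread with pairs of unlike evenness. In hippocampus 59 to 342 clusters differed in this way within a pair, and in cortex after 6 weeks 398 (curcumin) and 585 (control).

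**Figure D1:**
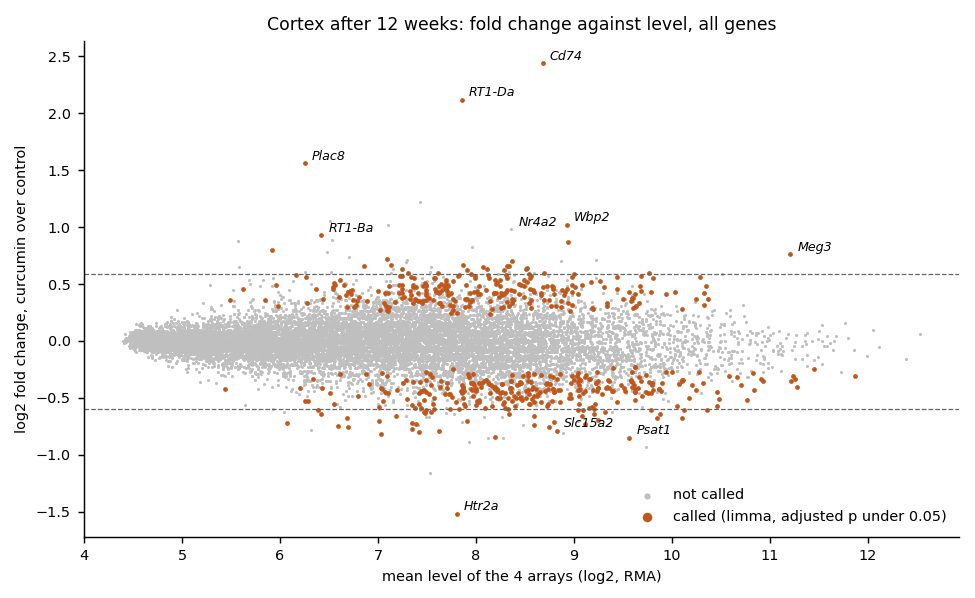
Log2 fold change (curcumin over control, y axis) against the mean log2 level of the 4 arrays (x axis) for 14324 genes in cortex after 12 weeks, with called genes in orange and dashed lines at 1.5-fold higher and 0.66-fold. Cd74, RT1-Da and Plac8 stand highest and Htr2a lowest among the called genes, while most called genes lie within the dashed lines.

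The cortex label was checked against marker genes of neighbouring tissue. Markers of hippocampal and dentate neurons (7 measured) averaged 7.30 and 7.49 in the curcumin arrays and 7.24 and 7.27 in the control arrays, below the 7.76 to 8.22 of the hippocampal arrays of the study. The 10 measured markers of cortical projection neurons are also made in the hippocampus and averaged 8.74 and 8.55 in curcumin cortex against 8.72 and 8.61 in control cortex, below the 8.95 to 9.07 of the hippocampal arrays, so that only the low hippocampal markers bear on the label. Markers of striatal projection neurons differed between arrays of one group: they averaged 6.59 and 7.23 in the curcumin arrays and 6.62 and 7.95 in the control arrays. The striatal peptide gene Penk stood at 7.45 and 7.94 with curcumin and at 7.75 and 9.34 in controls. Meningeal markers averaged 6.88 and 7.29 with curcumin and 7.51 and 6.62 in controls. No member of these 4 lists was called, and the part of such differences in the results below was not tested.

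The class II pathway of antigen presentation held the largest rises among named genes. Cd74, the invariant chain that escorts class II molecules to the endosome (chr18:56527071-56536406 in the rat assembly GRCr8), had levels of 9.13 and 10.67 in the curcumin arrays and 7.34 and 7.57 in the control arrays. RT1-Da, the alpha chain of the rat RT1-D molecule (chr20:4515393-4520387), had 8.14 and 9.69 with curcumin and 6.93 and 6.66 in controls. In both genes curcumin replicate 2 was the higher by over 1 log2 unit, yet replicate 1 still lay above both control arrays. RT1-Ba, the alpha chain of the RT1-B molecule, had 6.78 and 6.99 with curcumin against 5.92 and 5.99 in controls. RT1-Db1, the beta chain that pairs with RT1-Da, was dim throughout, at 5.75 and 5.94 with curcumin and 5.40 and 5.38 in controls. By limma the rises were 2.44 (SE 0.45, adjusted p = 0.0174) for Cd74, 2.12 (SE 0.47, adjusted p = 0.0373) for RT1-Da, 0.93 (SE 0.19, adjusted p = 0.0274) for RT1-Ba and 0.46 (SE 0.071, adjusted p = 0.00773) for RT1-Db1. On the linear scale these are 5.44-fold, 4.35-fold, 1.9-fold and 1.37-fold.

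The proximal promoters of these genes are shown because class II genes and the invariant chain share promoter boxes in mammals. The X2 box resembles a cyclic AMP response element and the Y box is an inverted CCAAT box. Each sequence runs from 250 bases before to 50 bases after the start site that the RefSeq promoter table uses (GRCr8, 5′ to 3′ on the gene's strand). That site is the outer boundary of the annotated gene for RT1-Ba and lies 135, 22 and 20 bases inside it for Cd74, RT1-Da and RT1-Db1. Capitals mark CCAAT or its reverse complement ATTGG and TGACG or its reverse complement CGTCA, which overlap where they follow each other in RT1-Ba. The regions are chr18:56526956-56527255 (plus strand) for Cd74, chr20:4515165-4515464 (plus) for RT1-Da, chr20:4576807-4577106 (plus) for RT1-Ba and chr20:4560113-4560412 (minus) for RT1-Db1.
Cd74: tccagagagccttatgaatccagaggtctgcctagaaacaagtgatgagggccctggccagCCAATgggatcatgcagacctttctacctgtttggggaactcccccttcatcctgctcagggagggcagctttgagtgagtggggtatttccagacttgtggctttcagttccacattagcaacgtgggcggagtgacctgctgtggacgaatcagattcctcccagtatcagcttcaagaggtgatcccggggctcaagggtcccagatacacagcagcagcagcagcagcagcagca
RT1-Da: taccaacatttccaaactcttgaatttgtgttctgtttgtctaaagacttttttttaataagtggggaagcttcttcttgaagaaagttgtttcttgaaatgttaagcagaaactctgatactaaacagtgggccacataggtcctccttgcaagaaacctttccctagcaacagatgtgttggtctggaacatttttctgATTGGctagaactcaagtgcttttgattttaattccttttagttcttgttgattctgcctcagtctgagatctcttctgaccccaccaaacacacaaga
RT1-Ba: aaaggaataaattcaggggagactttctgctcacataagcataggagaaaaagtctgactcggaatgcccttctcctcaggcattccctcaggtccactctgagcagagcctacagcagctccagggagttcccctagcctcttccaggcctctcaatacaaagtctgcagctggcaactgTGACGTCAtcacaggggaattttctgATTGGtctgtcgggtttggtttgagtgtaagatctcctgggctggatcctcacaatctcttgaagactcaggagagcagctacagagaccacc
RT1-Db1: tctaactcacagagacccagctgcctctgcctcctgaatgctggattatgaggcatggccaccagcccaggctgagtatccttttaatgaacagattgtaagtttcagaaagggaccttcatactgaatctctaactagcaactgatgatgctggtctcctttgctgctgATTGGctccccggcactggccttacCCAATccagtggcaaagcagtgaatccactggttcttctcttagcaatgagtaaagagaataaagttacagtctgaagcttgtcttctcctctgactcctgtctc
Counted from that start site, ATTGG began at -49 in RT1-Da, at -43 in RT1-Ba and at -80 in RT1-Db1, and CCAAT at -55 in RT1-Db1 and at -189 in Cd74. Only RT1-Ba of the 4 held TGACG, at -69, with CGTCA overlapping it at -66. Of 33469 rat promoters of this length, 37.5% hold CCAAT on either strand, 21.2% hold TGACG on either strand and 7.75% hold both, so that these matches describe the letters and nothing more.

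The rest of the pathway was not called. Of 16 measured members of the class II list, 4 rose and 0 fell, against 1.79% and 2.24% of all genes tested. The list's median log2 fold change was 0.098 beside -0.0054 for all genes. The study had reported Cd74 and RT1-Da from these arrays, so that their direction is no independent evidence for the list. RT1-Bb, the beta chain that pairs with RT1-Ba, had 6.50 and 6.19 with curcumin and 6.06 and 5.98 in controls (log2 fold change 0.33, adjusted p = 0.144). Ciita, the coactivator that class II promoters need, had 5.71 and 5.73 with curcumin and 5.67 and 5.64 in controls. Its promoter-binding partners Rfx5, Rfxap and Rfxank differed by 0.13, -0.03 and -0.14. The peptide-loading chains RT1-DMa and RT1-DMb differed by -0.01 and 0.06 and the modulators RT1-DOa and RT1-DOb by 0.20 and 0.05. Among the proteases and the reductase that prepare peptides, Ctss had a log2 fold change of -0.27, Lgmn of -0.13 and Ifi30 of 0.34, with adjusted p-values of 0.384, 0.606 and 0.27. None of 16 measured class I genes and none of 22 interferon-response genes was called by limma in either direction (3 higher and 0 lower, and 2 higher and 3 lower, at an unadjusted p under 0.05), with medians of 0.039 and 0.021.

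**Figure D2:**
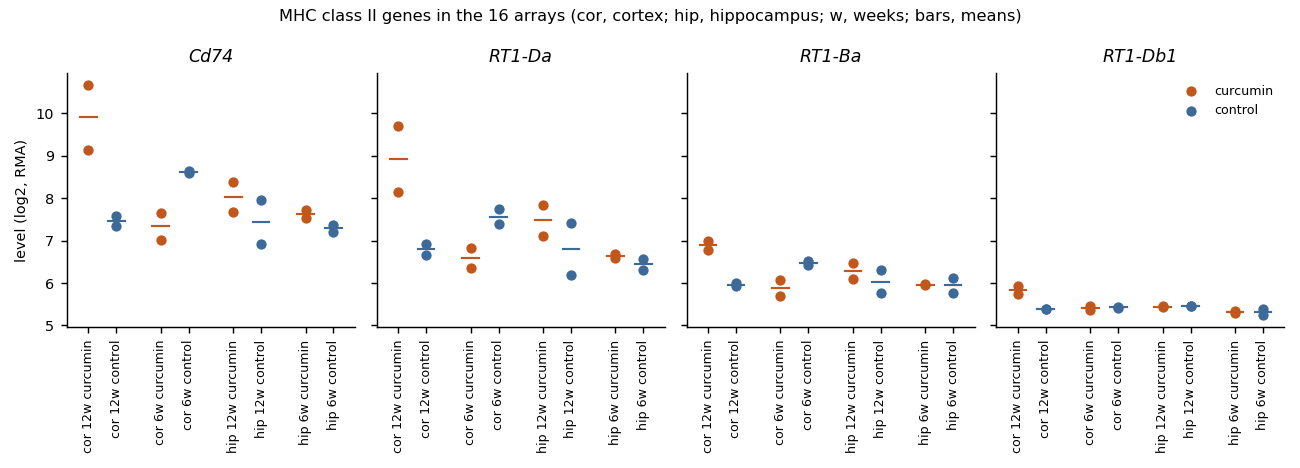
Log2 levels (y axis) of Cd74, RT1-Da, RT1-Ba and RT1-Db1 in each of the 16 arrays, by tissue, duration and diet (x axis), with bars at the group means. The curcumin arrays of cortex after 12 weeks hold the highest level of each gene, with Cd74 at 9.13 and 10.67. In cortex after 6 weeks the control arrays lie above the curcumin arrays for Cd74, RT1-Da and RT1-Ba.

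Cells that can carry class II molecules were followed through their own markers. Of 17 measured microglial genes, 12 had a positive difference and 0 passed limma (median 0.184, with 4 higher and 2 lower at an unadjusted p under 0.05). Their mean level was 6.94 and 7.29 in the curcumin arrays and 6.89 and 7.08 in the control arrays, so that the groups overlapped. Cd68, a lysosomal protein of microglia and macrophages, differed most (5.92 and 6.28 with curcumin, 5.60 and 5.52 in controls, log2 fold change 0.54, adjusted p = 0.178). Tmem119, a marker of resident microglia, differed by -0.25 (adjusted p = 0.225), Cx3cr1 by 0.04 and Aif1 by 0.38 (adjusted p = 0.97 and 0.267). Border macrophage and dendritic cell genes averaged 6.00 and 6.10 with curcumin and 6.09 and 5.96 in controls, with 0 of 11 called (2 higher at an unadjusted p under 0.05). Within that list Cd4, which rat macrophages also carry, had 6.50 and 7.65 against 6.17 and 6.50 (log2 fold change 0.74, adjusted p = 0.279), and curcumin replicate 2 was the high one, as for Cd74. Genes of T, B and NK cells averaged 5.45 and 5.43 with curcumin and 5.48 and 5.44 in controls, with 0 of 15 called and 0 at an unadjusted p under 0.05. Whether these cells had a part in the class II rise was not tested.

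The class II calls did not hold under every choice of arrays. Cd74 and RT1-Da lost their call without curcumin replicate 2, without control replicate 1 or without control replicate 2, with adjusted p-values of up to 0.147 and 0.217, while the log2 fold changes stayed at 1.67 and 1.34 or more. RT1-Ba lost its call whichever 1 of the 4 arrays was left out (up to 0.181), and RT1-Db1 without the same 3 arrays as Cd74 (up to 0.0792). RT1-Da also lost its call with trend and robust estimation.

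Plac8, a small cysteine-rich protein known from myeloid cells and placenta, rose as well, with 6.39 and 7.68 in the curcumin arrays and 5.58 and 5.36 in controls (log2 fold change 1.56, SE 0.32, adjusted p = 0.0268). Replicate 2 was again the higher curcumin array. Wbp2, a WW-domain-binding coactivator of transcription, was the most even of the large rises. It had 9.45 and 9.43 with curcumin and 8.41 and 8.42 in controls (1.02, SE 0.063, adjusted p = 5.89e-05). Meg3, a maternally expressed imprinted long noncoding RNA, had 11.59 and 11.60 with curcumin against 10.80 and 10.86 in controls (0.76, SE 0.059, adjusted p = 0.000265). The other genes among the 15 largest rises were Leng8, Cep295nl, the coronin Coro6, the teneurin Tenm2, the histone H3 lysine methyltransferase Kmt2d, the cyclin Ccnk, the leak potassium channel Kcnk9, the bromodomain scaffold Brpf3 and the synaptic adaptor Srcin1. Their log2 fold changes lay between 0.66 (Srcin1) and 0.87 (Leng8). A second cluster of Leng8 rose by 0.48 (adjusted p = 0.0324).

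**Figure D3:**
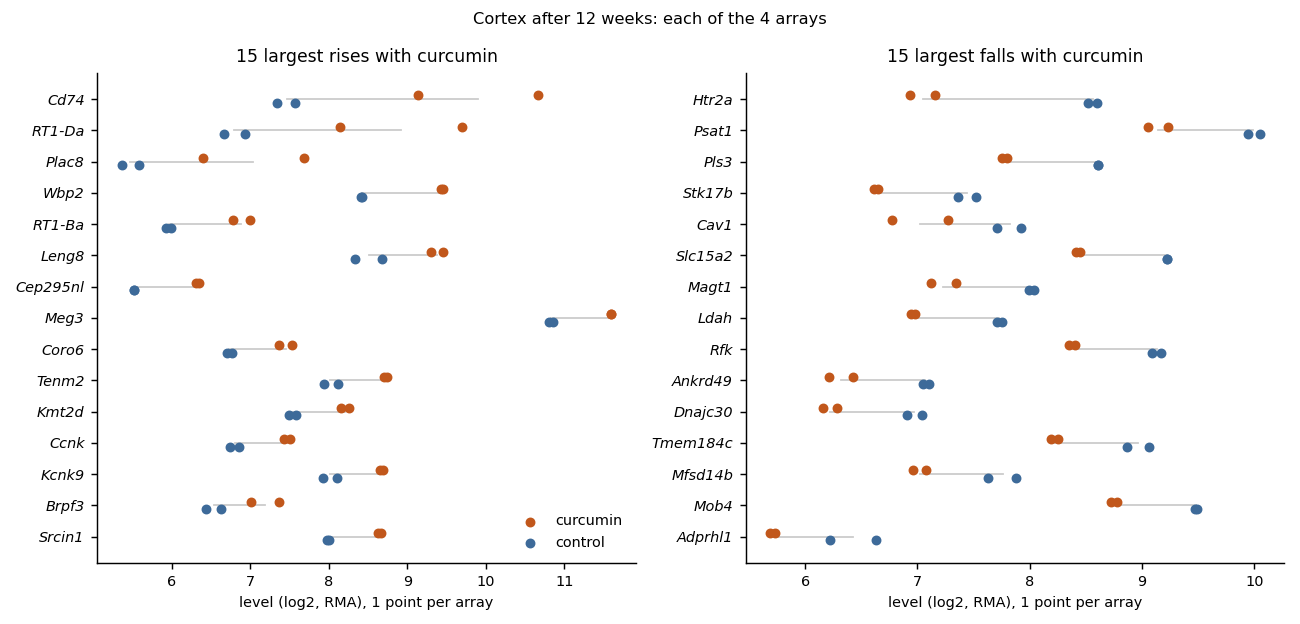
Log2 levels (x axis) of the 15 called genes with the largest rises (left) and the 15 with the largest falls (right) in each of the 4 arrays of cortex after 12 weeks, with a grey line between the group means. By the rule of choice no curcumin point lies among the control points of its gene. The curcumin arrays lie farthest apart for Cd74, RT1-Da and Plac8.

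Htr2a showed the largest fall. It had 6.93 and 7.16 in the curcumin arrays and 8.60 and 8.52 in the control arrays, a log2 fold change of -1.52 (SE 0.19, adjusted p = 0.00453) or 0.349-fold. Control cortex after 6 weeks had 7.48 and 7.5, below these control arrays but above these curcumin arrays. Without control replicate 1 the adjusted p was 0.0556. Of 17 measured genes of serotonin receptors and handling, 0 rose and 4 fell, against 2.24% of all genes, with a list median of -0.085. The study's text names Htr2a from these arrays, so that its direction is no independent evidence for the list. The monoamine oxidases fell together. Maoa had 8.25 and 8.31 with curcumin and 8.84 and 8.81 in controls (-0.55, SE 0.12, adjusted p = 0.0313). Maob had 8.54 and 8.63 with curcumin and 9.17 and 9.08 in controls (-0.54, SE 0.073, adjusted p = 0.00575). Both enzymes oxidise monoamines, and Maob is known mainly from astrocytes and serotonergic neurons. Htr5a, a receptor that couples to inhibitory G proteins, fell by 0.28 on the log2 scale (adjusted p = 0.0241). The receptor genes Htr2c (-0.74, adjusted p = 0.635) and Htr1b (-0.52, adjusted p = 0.579) did not pass, nor did the transporter Slc6a4 (-0.16, adjusted p = 0.485).

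Psat1, the aminotransferase of serine synthesis, had 9.05 and 9.23 with curcumin and 9.94 and 10.05 in controls (-0.85, SE 0.18, adjusted p = 0.0312), and its second cluster fell by 0.69 (adjusted p = 0.00964). It was the only called gene of 10 measured genes of serine and one-carbon synthesis, beside 2.24% of all genes called lower. Slc15a2, a transporter of small peptides, had 8.41 and 8.45 with curcumin and 9.22 in each control array (-0.79, SE 0.059, adjusted p = 0.000229). Rfk, the kinase that makes flavin mononucleotide from riboflavin, had 8.35 and 8.40 with curcumin and 9.17 and 9.09 in controls (-0.76, SE 0.063, adjusted p = 0.000372), and its second cluster fell by 0.67. Mob4, a subunit of the striatin phosphatase complex, had 8.78 and 8.72 with curcumin and 9.47 and 9.49 in controls (-0.73, SE 0.057, adjusted p = 0.000265). The remaining genes among the 15 largest falls were the actin bundler Pls3, the kinase Stk17b, the caveolar coat protein Cav1, Magt1, the lipid droplet hydrolase Ldah, Ankrd49, the mitochondrial protein Dnajc30, Tmem184c, Mfsd14b and Adprhl1, with log2 fold changes from -0.84 (Pls3) to -0.72 (Adprhl1). Adprhl1 lost its call under both other normalizations and with the replicate number as a block. Only genes whose arrays of the 2 groups were apart could enter this ranking, and 46.6% of all genes had them apart.

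Markers of astrocytes and endothelium lay lower with curcumin beside these falls. Of 12 measured astrocyte genes, 12 had a negative difference, where 48.2% of all genes lay above 0, and 2 fell, against 2.24% of all genes (median -0.204). Their mean level was 9.65 and 9.93 in the curcumin arrays and 9.97 and 10.01 in the control arrays. Mlc1, a membrane protein of astrocyte endfeet, had 9.54 and 9.79 with curcumin and 10.12 and 10.09 in controls (-0.44, SE 0.076, adjusted p = 0.0128), and Aldoc, the aldolase of astrocytes, had 11.29 and 11.38 against 11.57 and 11.59 (-0.25, SE 0.056, adjusted p = 0.0409). Aldoc lost its call under both other normalizations, without the dimmest clusters and with the replicate number as a block. Aqp4, Gfap and Slc1a3 differed by -0.37, -0.32 and -0.23 without passing. Endothelial genes averaged 7.57 and 7.76 with curcumin and 7.92 and 7.80 in controls, with 9 of 10 negative. Cav1 alone fell among them, with 6.77 and 7.27 against 7.92 and 7.71 (-0.80, SE 0.15, adjusted p = 0.0173), while Cldn5 differed by -0.21 and Cdh5 by 0.36. Oligodendrocyte genes averaged 7.96 and 8.28 with curcumin and 8.14 and 8.52 in controls, with 0 of 15 called (1 lower at an unadjusted p under 0.05). Of these 15, 13 had a negative difference (median -0.128). The medians were negative in cortex after 6 weeks as well, at -0.119 for astrocytes, -0.158 for endothelium and -0.746 for oligodendrocytes. Psat1, Slc15a2 and Maob are made by astrocytes, and the part of the astrocyte shift in their falls was not tested.

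Of 24 measured genes of synaptic scaffolds and adhesion, 7 rose and 0 fell, against 1.79% and 2.24% of all genes, with a list median of 0.192. These shares were not matched for level. The list averaged 8.75 and 8.72 with curcumin and 8.51 and 8.53 in controls, while the median level of all genes tested was 6.86. Nlgn2, the neuroligin of inhibitory synapses, had 8.37 and 8.41 with curcumin and 7.70 and 7.79 in controls (0.65, SE 0.086, adjusted p = 0.00537). Srcin1, which restrains Src kinase in dendritic spines, had 8.66 and 8.63 with curcumin against 8.0 and 7.98 in controls (0.66, SE 0.09, adjusted p = 0.00576). Agrn, the proteoglycan agrin, had 8.60 in each curcumin array and 7.98 and 7.97 in the control arrays (0.62, SE 0.07, adjusted p = 0.00279). The scaffolds Shank1 and Shank2 rose by 0.57 and 0.49, the PDZ protein Whrn by 0.56 and the presynaptic adhesion gene Nrxn2 by 0.39. Shank3 had 8.67 and 8.61 with curcumin and 7.95 and 8.11 in controls, a log2 fold change of 0.61 that did not pass (adjusted p = 0.0645). Dlg4, the scaffold PSD-95 of excitatory synapses, differed by -0.12 and Lrrtm2 by -0.37 (adjusted p = 0.425 and 0.0776). Srcin1, Nlgn2, Shank3 and Whrn are named in the study's own text from these arrays, so that their direction is no independent evidence for the list. A second cluster of Nrxn2 differed by 0.08 (adjusted p = 0.877).

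Of 21 glutamate receptor genes 3 rose, namely the obligatory NMDA subunit Grin1 (0.44, adjusted p = 0.0116), Grin2c (0.35, adjusted p = 0.0444) and the kainate subunit Grik5 (0.49, adjusted p = 0.00486), and 0 fell. Gabra3, an alpha subunit of the GABA-A receptor, had 8.89 and 8.88 with curcumin and 9.64 and 9.41 in controls and fell by 0.64 (adjusted p = 0.0141), as the only one of 12 GABA-A genes called. Of 27 vesicle release genes, 5 rose and 1 fell, with a list median of 0.086 beside 0.294 in cortex after 6 weeks. All counts of this paragraph stand beside 1.79% of all genes called higher and 2.24% called lower. Vamp2, the vesicle SNARE of transmitter release, had 9.68 and 9.75 with curcumin and 9.15 and 9.17 in controls (0.56, SE 0.061, adjusted p = 0.00273). Syt7, Unc13a, Rims1 and Syn1, which act in calcium sensing, priming, active zone scaffolding and vesicle clustering, rose by 0.60, 0.46, 0.37 and 0.35. Nsf, the ATPase that takes SNARE complexes apart, fell by 0.28. Calcium channel genes Cacna1b and Cacna1e rose by 0.52 and 0.46, as 2 of 25 sodium and calcium channel genes called. Rims1 and Syn1 were also called in cortex after 6 weeks, with larger rises of 0.57 and 0.50 (limma, adjusted p = 0.0488 for each).

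Single genes that act on the actin cytoskeleton were also called. Kalrn, which activates Rac1 in dendritic spines, had 9.11 and 8.94 with curcumin and 8.52 and 8.59 in controls (0.47, SE 0.074, adjusted p = 0.00898). Prex1, another activator of Rac1, had 8.61 and 8.76 with curcumin and 8.09 and 8.28 in controls (0.50, SE 0.087, adjusted p = 0.0128). Tiam1, a Rac1 exchange factor named in the study's text, had 8.61 and 8.44 with curcumin and 7.90 and 7.97 in controls, a log2 fold change of 0.59 that did not pass (adjusted p = 0.106). Guidance receptors and ligands had 15 of 17 positive differences (median 0.259), of which Plxna3, a semaphorin receptor, rose by 0.55 (adjusted p = 0.0122). Potassium channels had a median of -0.005 over 31 genes, with Kcnk9 the only one called, beside 1.79% of all genes called higher. Wee1, an inhibitory kinase of the cell cycle that the study also names, had 7.22 and 7.25 with curcumin and 7.85 and 7.86 in controls (-0.62, SE 0.12, adjusted p = 0.0194). None of 20 activity-induced genes was called (2 higher and 3 lower at an unadjusted p under 0.05), 14 had a negative difference and the list median was -0.203. The one with the largest t was Nr4a2, a nuclear receptor, at 8.60 and 9.09 with curcumin and 7.66 and 8.07 in controls (0.98, adjusted p = 0.0634). Dusp6, a phosphatase that acts on ERK, had 7.91 and 7.86 with curcumin and 8.52 and 8.28 in controls (-0.51, adjusted p = 0.064). Fos and Arc differed by -0.22 and -0.26.

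Called genes of sterol and polyamine synthesis fell. In sterol synthesis 15 of 18 measured genes had a negative difference (median -0.237) and 3 fell, against 2.24% of all genes. They were Msmo1, the methylsterol monooxygenase (9.44 and 9.59 with curcumin, 10.31 and 10.08 in controls, -0.68, adjusted p = 0.0072), Nsdhl, which acts at the following step (-0.46, adjusted p = 0.039), and Insig2, which holds the sterol sensor in the endoplasmic reticulum (-0.53, adjusted p = 0.0401). Nsdhl and Insig2 lost their call where each array was centred on its median. Srebf2, the transcription factor of sterol genes, differed by 0.18 (adjusted p = 0.224). In polyamine synthesis 3 of 10 genes fell. Amd1, the S-adenosylmethionine decarboxylase, had 8.47 and 8.41 with curcumin and 9.13 and 9.16 in controls (-0.71, SE 0.08, adjusted p = 0.00279). Azin1 had 8.74 and 8.76 with curcumin and 9.46 and 9.36 in controls (-0.66, SE 0.088, adjusted p = 0.00537), and Oaz1 had 9.73 and 9.81 against 10.31 and 10.37 (-0.57, SE 0.073, adjusted p = 0.00486), with -0.75 in its second cluster. Oaz1 encodes the antizyme that inhibits ornithine decarboxylase and Azin1 the inhibitor of that antizyme, so that genes of opposite action fell, and Odc1 itself differed by -0.04.

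**Figure D4:**
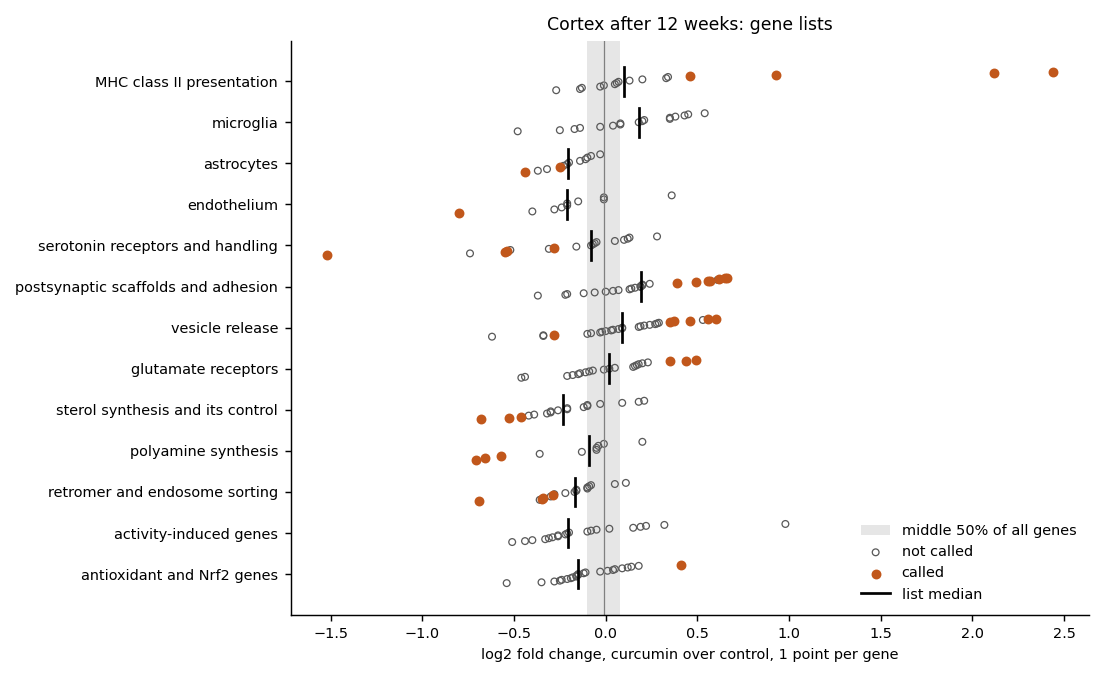
Log2 fold change (curcumin over control, x axis) of each measured gene of 13 gene lists (y axis) in cortex after 12 weeks, with called genes filled, a black bar at each list's median and a grey band over the middle 50% of all genes. The astrocyte genes all lie below 0 around a median of -0.204, and the called postsynaptic genes all lie above 0.

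Curcumin is known as an inducer of antioxidant genes through Nrf2, and these genes did not move together. Of 23 measured, 15 had a negative difference (median -0.146), with 2 higher and 6 lower at an unadjusted p under 0.05 by limma. Only Sod1, the cytosolic superoxide dismutase, was called, beside 1.79% of all genes called higher. Sod1 had 10.13 and 10.17 with curcumin and 9.67 and 9.80 in controls (0.41, SE 0.075, adjusted p = 0.0173). Hmox1 and Nqo1, classic targets of Nrf2, differed by -0.03 and -0.16 (adjusted p = 0.951 and 0.818). Among 20 heat shock genes the factor Hsf1 rose by 0.42 while the chaperones Dnajb1 and Hsp90aa1 fell by 0.46 and 0.31 (adjusted p = 0.0128, 0.0131 and 0.0296). Endosomal sorting genes that were called also fell. Of 17 genes of the retromer and of endosomal sorting, 15 had a negative difference (median -0.167) and 4 fell, against 2.24% of all genes. Vps35, the core retromer subunit, had 8.88 and 8.94 with curcumin and 9.69 and 9.50 in controls (-0.69, SE 0.11, adjusted p = 0.00917), and Vps29, Rab5a and Snx2 fell by 0.34, 0.35 and 0.29. A second cluster of Rab5a differed by -0.26 without passing (adjusted p = 0.0679).

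In the large housekeeping lists the called shares were read against 1.79% of all genes higher and 2.24% lower. Respiratory chain subunits had 1 gene higher (Uqcrfs1, 0.55) and 2 lower (Ndufs1, -0.43, and Atp5f1a, -0.33) of 34, and proteasome subunits had 2 lower (Psmd2 and Psmb4) of 30. Ribosomal protein genes had 3 higher (Rps18, Rpl24 and Rpl38) and 2 lower (Rpl6 and Rplp0) of 39, and since these genes have many near-identical copies their probes may share signal. No circadian clock gene of 12 passed limma (3 higher and 3 lower at an unadjusted p under 0.05), and Per3 differed by 0.53 (adjusted p = 0.0815).

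Chromatin genes formed a group that was chosen after the values were seen, and so no more than a description. The counts stand beside 1.79% of all genes higher and 2.24% lower. Of 19 histone lysine methyltransferases, 6 rose and 0 fell (median 0.120). Kmt2d, which methylates histone H3 at enhancers, had 8.16 and 8.25 with curcumin and 7.49 and 7.58 in controls (0.67, SE 0.098, adjusted p = 0.00665). Kmt5c, Dot1l, Kmt2e, Setd5 and Nsd3 rose by 0.63, 0.49, 0.46, 0.43 and 0.31. Of 17 genes of histone acetyltransferase complexes and bromodomain proteins, Brpf3, Trrap and the acetyltransferase Crebbp rose by 0.66, 0.58 and 0.36, and of 19 remodellers of the BAF family Arid1a and the ATPase Smarca4 rose by 0.41 and 0.36. Splicing factors had 5 of 65 higher and 0 lower, among them Srrm2 (10.07 and 10.10 with curcumin, 9.50 and 9.56 in controls, 0.55, adjusted p = 0.00665). Other families were chosen in the same way. Of 26 ubiquitin-conjugating enzymes 3 fell (Ube2w, Ube2g1 and Ube2l3) and of 28 vacuolar protein sorting genes 5 fell, Vps41 by 0.61 and Vps50, Vps45, Vps35 and Vps29 by 0.55, 0.38, 0.69 and 0.34.

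Called genes also differed in promoter GC content and span, which the calls did not use, and in level, on which the calls were made. Among 213 genes that rose and have a promoter sequence, the median GC content of the 300-base promoter window was 64.3%, against 59.7% for 280 genes that fell and 58.0% for 11805 of all genes tested. The lower and upper quartiles of GC content were 58.0% and 70.3%, 54.0% and 65.7%, and 49.7% and 65.3%, so that the sets overlapped. The median span on the genome was 32.6 kb for genes that rose, 22.9 kb for genes that fell and 18.0 kb for all. Median levels were 7.95, 8.64 and 6.86, so that called genes were brighter than the rest. The shares of all genes that stand beside the counts of gene lists were not matched for level. A list of bright genes may therefore exceed these shares through its level alone, which was not tested. Whether GC content and span go with level was not tested, and no test was made of these differences.

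The 13 genes that kept their call without any 1 of the 4 arrays were picked out after the values were seen. Wbp2, Meg3, Agrn, Vamp2 and Atn1 rose and Slc15a2, Rfk, Mob4, Amd1, Slc25a44, Ddx6, Cox11 and Spop fell. Atn1, the corepressor atrophin 1, had 8.41 and 8.49 with curcumin and 7.96 and 7.94 in controls (0.50, adjusted p = 0.00292). Ddx6, a helicase of processing bodies, had 9.64 and 9.47 with curcumin and 10.19 and 10.20 in controls (-0.64, adjusted p = 0.00273). Cox11, an assembly factor of cytochrome c oxidase, had 7.18 and 7.19 with curcumin against 7.79 and 7.81 in controls (-0.61, adjusted p = 0.00173). Slc25a44, a mitochondrial carrier of branched-chain amino acids, fell by 0.70 and Spop, a substrate adaptor of a ubiquitin ligase, by 0.60 (adjusted p = 0.00273 and 0.00237).

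Clusters without a gene symbol made up 267 of the 885 called clusters. The 2 highest, again picked after their values were seen, changed more than any named gene, and they were the only clusters that the fit to the 4 arrays alone called. Transcript cluster 10803049 had 7.67 and 7.46 in the curcumin arrays and 4.98 and 4.94 in the control arrays (2.60, SE 0.089, adjusted p = 1.87e-07). In the 14 arrays other than the curcumin pair it lay between 4.79 and 5.08, near the dim end of the scale. Cluster 10813885 had 8.96 and 8.71 with curcumin and 6.34 and 6.29 in controls (2.51, SE 0.30, adjusted p = 0.00379), and between 5.67 and 6.94 in the other 14 arrays. Its identity, like that of the first, is not given in the annotation used here.

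The change after 12 weeks in cortex was then set against the change after 6 weeks in cortex and after 12 weeks in hippocampus. In the same fit 29 clusters (0.106%) or 19 genes (0.133%) were called in cortex after 6 weeks, and 1 cluster (0.00366%), which is a named gene (0.00698%), in hippocampus after 12 weeks. Of the 577 genes called in cortex after 12 weeks, 276 had the same sign after 6 weeks and 343 in hippocampus after 12 weeks. The difference between the 12-week and 6-week effects in cortex was itself called for 265 genes (1.85%), and 171 of the 577 were among those it called. The difference between cortex and hippocampus after 12 weeks was called for 26 genes (0.182%), 24 of them among the 577. The 577 were chosen on the 12-week cortex effect, which is a term of both differences. These overlaps are therefore no independent evidence. In leaving out 1 array, the 12-week minus 6-week count of clusters, 402 with all arrays, was 8 without curcumin replicate 2, 9 without control replicate 1, 164 without control replicate 2 and 476 without curcumin replicate 1. The cortex minus hippocampus count of clusters, 52 with all arrays, lay between 12 and 15 without any 1 of them.

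Marker levels of cortex after 6 weeks enter the differences between the durations. There microglial genes averaged 6.85 and 6.88 with curcumin and 7.15 and 7.37 in controls. Striatal markers averaged 6.73 and 7.51 against 8.55 and 6.83, and olfactory bulb markers 6.81 and 6.75 against 7.10 and 8.26. The part of these levels in the differences was not tested. Cd74 is an example of an effect that differed between the durations. After 6 weeks it had 7.01 and 7.66 in curcumin cortex and 8.64 and 8.60 in control cortex (log2 fold change -1.29, adjusted p = 0.273), so that the effect at 12 weeks exceeded that at 6 weeks by 3.73 (SE 0.64, adjusted p = 0.0256). The control cortex of the 6-week rats thus lay above that of the 12-week rats, at 7.34 and 7.57. RT1-Da and RT1-Ba went the same way, with differences between the durations of 3.10 and 1.51 (adjusted p = 0.0496 and 0.0295). In hippocampus after 12 weeks Cd74 had 8.38 and 7.68 with curcumin and 6.92 and 7.95 in controls, which overlapped (0.59, adjusted p = 0.999), and its effect was not shown to differ between the tissues (difference 1.85, SE 0.64, adjusted p = 0.291). Htr2a had a positive difference after 6 weeks (0.49) against its fall after 12 weeks, and the durations differed by -2.00 (SE 0.27, adjusted p = 0.0137). Its control cortex also differed between the durations, with 8.6 and 8.52 after 12 weeks and 7.48 and 7.5 after 6 weeks. The part of this shift between control groups in the fall and in the difference was not tested.

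**Figure D5:**
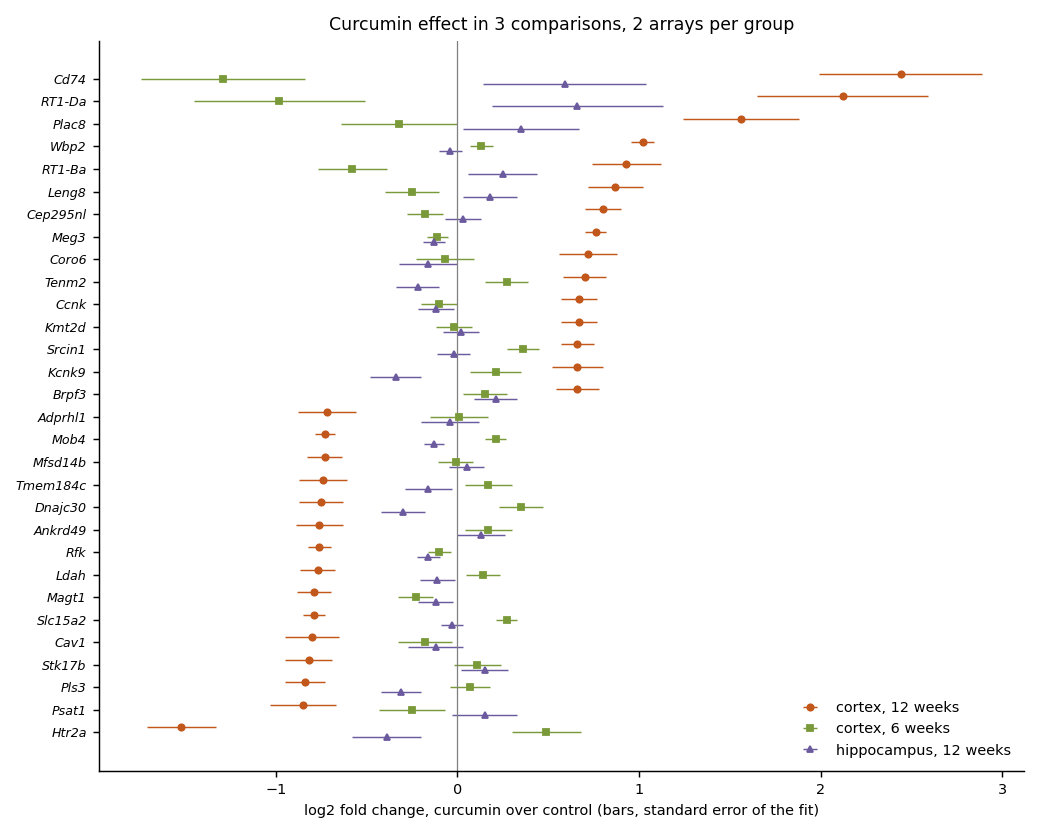
Log2 fold change with curcumin (x axis, bars for the standard error of the fit) of the 15 genes with the largest rises and the 15 with the largest falls in cortex after 12 weeks (y axis), beside the same genes in cortex after 6 weeks and hippocampus after 12 weeks. The genes were chosen on the orange values, and for Cd74 the cortical effects are 2.44 after 12 weeks and -1.29 after 6 weeks.

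Of the 30 genes with the largest changes, Wbp2, Meg3, Slc15a2, Rfk and Mob4 differed in both tests. The 30 were chosen for their size in the 12-week cortex comparison, which enters both tests. The rise of Wbp2 in cortex after 12 weeks exceeded its change after 6 weeks by 0.89 (SE 0.089, adjusted p = 0.003) and that in hippocampus by 1.06 (SE 0.089, adjusted p = 0.00151). For Meg3 these differences were 0.87 and 0.89 (adjusted p = 0.0024 and 0.00328), for Slc15a2 -1.06 and -0.75 (adjusted p = 0.0008 and 0.00705). Of the synaptic genes named above, Nlgn2 differed between the tissues by 0.73 (SE 0.12, adjusted p = 0.0472) and Agrn by 0.70 (SE 0.099, adjusted p = 0.0297). Vamp2 differed by 0.63 (SE 0.087, adjusted p = 0.0247) and Grik5 by 0.59 (SE 0.09, adjusted p = 0.0405). Agrn also differed between the durations, by 0.74 (SE 0.099, adjusted p = 0.0137).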

How the data were processed

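Total RNA from pooled cortex or hippocampus was hybridised to Affymetrix arrays. The deposited values are log2 expression levels that the authors made with Affymetrix Expression Console, RMA (background correction, quantile normalization and probe summary) and Gene Spring, with versions not given in the sources used here. RMA draws arrays to one distribution, which hides a shift of all genes. No probe-level data were used here, and whether a gene array or an exon array was used was not settled. The number of arrays limits the precision.

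Group means of all 16 arrays were fitted with limma 3.58.1 in R 4.3.3 (lmFit, contrasts.fit, eBayes, 8 residual degrees of freedom), with Benjamini-Hochberg adjustment over 27342 clusters. The fit on 16 arrays shares 1 estimate of the spread. The same fit tested 12 minus 6 weeks in cortex and cortex minus hippocampus after 12 weeks. Symbols came from the platform annotation: 15097 clusters had 1, 323 had several and 11922 had none. Of the clusters, 15067 were found by gene ID in RefSeq (GRCr8), which gives the coordinates. Of the called genes, 33 have more than 1 cluster, all of 1 sign, and in 16 of them every cluster was called.

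Named are the 15 highest and 15 lowest called genes with arrays apart, the called members of 44 gene lists or else the 2 with the largest moderated t, all class II members and genes of the study's text. The counts of 1 list are not reported here. Unc5d, also named there, has no named cluster here, and mitochondrially encoded genes were not measured. Other genes named were chosen after their values were seen or as known members of a list, as were 8 gene families. The members, lists and tests were chosen with earlier results of these data known. Alternatives were a filter on the dimmest 25% of clusters, other normalizations, fits on fewer arrays, leaving out each array, a variance trend with robust fitting, weights per array, a block for the replicate number, the pool as a random block (statmod 1.5.0) and other fold thresholds. Tested on simulated arrays with 200 changed clusters in this comparison (27342 clusters), the fit recovered 68.5% of 1.5-fold and 95.0% of 2-fold changes, with 8 and 16 false calls. The simulated noise was independent between clusters, with the same spread in every group and no tissue difference. Differences shared by the genes of an array were not simulated, so that these figures cannot be carried over to the real arrays. Plots were made in Python 3.11.15 with matplotlib 3.10.9.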

Additional observations from a re-analysis of the deposited data

Results flagged for a closer look

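For 20 of the 30 genes with the largest changes in cortex after 12 weeks, the curcumin effect differed from that after 6 weeks in the limma fit (log2 difference, 12 weeks minus 6 weeks). It was larger by 3.73 for Cd74, 3.10 for RT1-Da, 1.51 for RT1-Ba, 1.12 for Leng8, 0.99 for Cep295nl, 0.89 for Wbp2, 0.87 for Meg3, 0.77 for Ccnk and 0.70 for Kmt2d, with adjusted p-values from 0.0024 (Meg3) to 0.0496 (RT1-Da). It was lower for Htr2a (-2.00), Dnajc30 (-1.11), Slc15a2 (-1.06), Mob4 (-0.94), Stk17b (-0.92), Ankrd49 (-0.92), Ldah (-0.91), Tmem184c (-0.91), Pls3 (-0.90), Mfsd14b (-0.72) and Rfk (-0.66), with adjusted p-values from 0.0008 (Slc15a2) to 0.0391 (Tmem184c). The difference did not pass for Plac8, Coro6, Tenm2, Kcnk9, Brpf3, Srcin1, Psat1, Cav1, Magt1 and Adprhl1 (adjusted p from 0.0688 to 0.299). Between cortex and hippocampus after 12 weeks the effect differed by 1.06 for Wbp2, 0.89 for Meg3 and 0.73 for Nlgn2, and by -0.75 for Slc15a2, -0.60 for Rfk and -0.59 for Mob4, with adjusted p-values from 0.00151 (Wbp2) to 0.0472 (Nlgn2). Nlgn2 was named by the study from these arrays and the others were chosen for their size in the 12-week cortex comparison, which enters each difference.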

How the results depend on the processing

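The counts of clusters called depended on the arrays in the fit more than on the values. Against 449 higher and 436 lower, the fit to the 8 cortical arrays called 8 and 14, and the fit to the 4 arrays called 2 and 0 (smallest adjusted p 0.0236), with fewer arrays and residual degrees of freedom. Leaving out 1 array gave 13 to 254 higher and 13 to 193 lower, the lowest without control replicate 1. The count past 1.5-fold, 226, was 294 to 479 without 1 array, 15 at 2-fold or more, and 122 where genes replaced clusters (chosen after seeing the data). Centring each array on its median gave 275 higher (298 lower), and the other normalization, the dim filter, the variance trend and the array weights kept both counts within 1.5 times.

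The difference between 12 and 6 weeks, called for 402 clusters, was called for 8 to 476 without 1 array, 1 in the fit to 8 cortical arrays, 636 after quantile normalization, 187 after median centring and 220 with array weights. The difference between cortex and hippocampus, called for 52, was called for 12 to 15 without 1 array, 23 without the dimmest clusters, 107 after quantile normalization, 23 after median centring and 19 with array weights. The cause of these shifts was not tested.

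The labels number the arrays, but the numbers share no stated litter or batch and the replicate differences of curcumin and control cortex after 12 weeks correlated at 0.0107, so that these groups share only a number. Cortex and hippocampus pools of 1 number may hold the same rats, which the labels do not say, and their replicate differences correlated at 0.148 (curcumin, 12 weeks), 0.162 (control, 12 weeks), -0.154 (curcumin, 6 weeks) and 0.124 (control, 6 weeks). With a replicate block 407 clusters were higher and 389 lower, 368 differed between the durations and 17 between the tissues. The block changed the call of some named genes near the threshold, among them Adprhl1 and Kmt2e. With the pool of rats as a random block 450 were higher and 444 lower, and 62 differed between the tissues. Of 112 called genes among the 15 highest, the 15 lowest and the lists, 29 lost their call under median centring. Among them were Coro6, Whrn, Maoa, Nsf, Vps29 and Kmt2e. Leaving out 1 array could not change the direction of these genes, since their curcumin arrays lay beyond their control arrays.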

Other observations

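Other gene groups held few called genes in cortex after 12 weeks, beside 1.79% of all genes called higher and 2.24% called lower. Slc35b4, a nucleotide sugar transporter of the Golgi and endoplasmic reticulum, had 8.11 and 8.41 with curcumin and 9.03 and 8.80 in controls and fell by 0.66 on the log2 scale (adjusted p = 0.00732), as the only one called of 11 in its list. Polr2d, a subunit of RNA polymerase II, had 6.80 and 6.87 with curcumin and 7.20 and 7.30 in controls and fell by 0.42 (adjusted p = 0.0249), as the only one of 9. Map3k12, a kinase of axon injury signalling, had 9.13 and 9.06 with curcumin and 8.80 and 8.87 in controls and rose by 0.26 (adjusted p = 0.0442), as the only one of 19 protein kinase C and MAP kinase kinase kinase genes. Cav1 was the only one called of 8 genes of caveolae, with a list median of -0.177. Of 37 mitochondrial solute carriers, the phosphate carrier Slc25a3 rose by 0.29 and Slc25a44, Slc25a11 and Slc25a51 fell by 0.70, 0.45 and 0.43. Of 152 zinc finger protein genes Zfp512b, Zfp598 and Zfp597 rose by 0.60, 0.34 and 0.31 and 0 fell, a share of rises near the 1.79% of all genes.

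Markers of GABA interneurons averaged 8.0 and 8.11 with curcumin and 7.97 and 7.96 in controls, with 0 of 15 called by limma and 1 lower at an unadjusted p under 0.05. Pericyte and smooth muscle genes averaged 7.14 and 7.35 with curcumin and 7.31 and 7.22 in controls. Choroid plexus and ependymal genes averaged 5.68 and 5.92 with curcumin and 5.86 and 5.75 in controls. Olfactory bulb genes averaged 6.64 and 6.91 with curcumin and 6.97 and 6.95 in controls, and red blood cell genes 6.31 and 6.24 with curcumin and 6.62 and 6.33 in controls. No gene of these 4 lists passed limma.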
